A study of Mus musculus with 38 samples.

Results

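The regions described here are stretches of mouse liver chromatin that carried acetylated histone H3 lysine 27 (H3K27ac) in fed mice and after 10 h of fasting, and that were not listed after 24 h of fasting. They were drawn from 3 region lists that the authors had called on pooled libraries. The members were chosen by their H3K27ac calls alone. A region of the fed list was taken when it had at least 1 base in common with a region of the 10 h list and none with a region of the 24 h list. Of 29917 fed regions, 3369 met this rule, or 11.3% of the fed list. That share is set by the rule, and nothing is read from it. Widths, densities and z-scores in the H3K27ac lists come from the same calls and are given as description, without a test. They are called the 24 h-absent regions below, because absence from a list is all that the rule records, and a fall in acetylation was not measured.

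All samples came from C57BL/6 mice kept on a 12 h light-dark cycle, and proteins were mapped by chromatin immunoprecipitation and sequencing. H3K27ac was mapped in the liver of mice fed freely, fasted for 10 h and fasted for 24 h, with 3 samples in each group. CREB and CREB phosphorylated at serine 133 were mapped in the liver of fed mice and of mice fasted for 24 h, with 3 samples in each of these 4 groups. Hepatocytes isolated by collagenase perfusion gave a CREB list without hormone (1 sample), after 10 nM glucagon for 1 h (2 samples), and after 10 nM glucagon with 1.7 uM corticosterone for 1 h (2 samples), and a glucocorticoid receptor (GR) list after the combination (2 samples). The labels do not say whether samples of a group came from separate animals or cultures. Each group had 1 list, so no value below has a replicate spread and no difference between conditions was tested. Liver GR and C/EBP beta libraries were not analysed here. No gene is named and no sequence is printed, because positions are on build mm9, whose genome and annotation were not used here.

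H3K27ac is laid down by the acetyltransferases p300 and CBP and marks active promoters and enhancers. CREB is the transcription factor at the end of the cAMP pathway, which glucagon raises in hepatocytes during fasting, and phosphorylation of serine 133 lets CREB bind CBP and p300. GR is the receptor for corticosterone, the main glucocorticoid of mice, which also rises in fasting, and both factors act on genes of glucose production.

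The 24 h-absent regions were mostly narrow and weakly covered in fed liver. Their median width was 462 bp (lower and upper quartiles 346 and 611 bp, range 252 to 3921 bp), against 822 bp over the whole fed list and 1007 bp over the 24346 fed regions that were present in both fasted lists. Those present in both fasted lists are called the kept regions. The highest tag density inside a region, a value given by the authors, had a median of 10.8 in the 24 h-absent regions and 21.3 in the kept regions. How the authors scaled the density is not stated, so it is used only to rank and describe regions of the same list. By density, 411 of the 24 h-absent regions (12.2%) lay above the median of the fed list. With the fed list split into 4 equal groups by density, this class took 1775 of the lowest group (23.7%), 1183 of the next (15.8%), 387 of the next (5.17%) and 24 of the densest (0.321%).

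**Figure D1:**
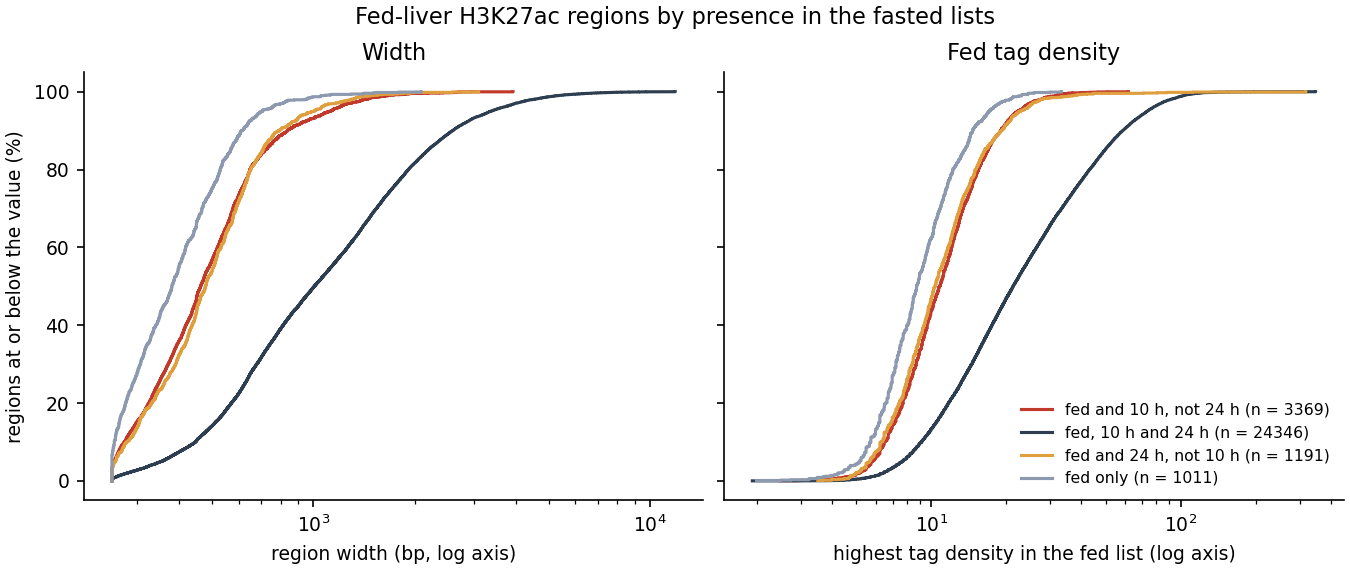
Cumulative share of fed-liver H3K27ac regions by width (left, bp, log axis) and by the authors' highest tag density in the fed list (right, log axis), 1 line for each class of presence in the 10 h and 24 h lists. The line of the 3369 24 h-absent regions runs beside that of the 1191 regions present at 24 h and absent at 10 h, and both lie to the left of the 24346 kept regions.

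Another class had almost the same width and density. The 1191 fed regions that were present at 24 h and absent at 10 h had a median width of 478 bp and a median density of 10.4. The 1011 regions in the fed list alone were narrower, at 380 bp, with a median density of 8.73. The class present at 24 h and absent at 10 h is used below as the closest comparison in width, and is called the 10 h-absent class.

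The authors' z-score, which ranks a region above its surroundings, placed many of the 24 h-absent regions near the bottom of the fed list. The lowest z-score in the fed list was 10.9, and 726 of the 24 h-absent regions (21.5%) were below 12, against 7.81% of all fed regions. A z-score of 20 or more was held by 551 of them (16.4%), against 61.6% of all fed regions. The 3 lists did not end at the same z-score, since the lowest was 7.72 in the 10 h list and 8.61 in the 24 h list. They also differed in length, with 47777 regions at 10 h and 32103 at 24 h. With the fasted lists reduced to the length of the fed list, 2864 regions met the rule by density and 2916 by z-score, and 76.1% and 74.1% of the 3369 were among them. The part of the differing z-scores in which regions are listed was not tested.

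In the 10 h list the matching regions were of middle rank. For each 24 h-absent region the densest overlapping 10 h region was taken as its partner, which gave 3191 distinct partners, 178 of which held 2 or more of the fed regions. The median partner had a density of 13.1, a z-score of 19.2 and a width of 907 bp. Over the whole 10 h list these medians were 11.5, 18.0 and 699 bp, so 58.4% of the regions had a partner above the list's median density. The partners of the kept regions had a median density of 25.7. In 2749 cases (81.6%) the partner was wider than the fed region, and in 2073 cases (61.5%) it covered the fed region whole. The fed region thus often lay inside a broader 10 h region. In 694 cases (20.6%) the same 10 h partner also touched a region of the 24 h list, so that acetylation was listed at 24 h elsewhere in the same 10 h region. For the other 2675 (79.4%) the partner touched no 24 h region.

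Distance to the nearest 24 h region separated the 24 h-absent regions into nearby and isolated ones. The median distance was 3767 bp, with quartiles of 359 and 18193 bp. At most 500 bp away lay 990 regions (29.4%), from there to 10000 bp lay 1212 (36.0%), and beyond 10000 bp lay 1167 (34.6%). Among the nearby 990 regions, 63.9% had a 10 h partner that reached into a 24 h region, against 5.03% in the middle class and 0 of the isolated regions. Beyond 100 kb of any 24 h region lay 197 (5.85%). At the edge of the rule, chr13:115253288-115253764 had no base between it and a 24 h region, and chr4:144807386-144807879 and chr12:31268834-31269268 had 1 base between. Just outside the rule, chr16:30552251-30553323, chr16:24902340-24902810 and chr7:105852897-105853398 shared 1 base with a 24 h region and were counted as kept. There were 85 regions within 50 bp of a 24 h region, and 50 kept regions with at most 50 bases in common with one.

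Most of the 24 h-absent regions stood alone, with some clusters. Joining those at most 10 kb apart left 2435 single regions (72.3%), 341 pairs and 73 clusters of 3 or more that together held 252 regions. In 43 of the 73 clusters no 24 h region lay anywhere within the span. The cluster at chr2:118358567-118375353 spanned 16.8 kb and held 7 regions, all of the fed regions in its span, with no 24 h region. The cluster at chr6:85857342-85887704 spanned 30.4 kb and also held 7, among 11 fed regions and 5 regions of the 24 h list. At chr4:151593924-151607230, all 6 fed regions in a 13.3 kb span were absent at 24 h. Some smaller clusters were dense. At chr1:90156141-90166443, 4 regions had fed densities of 28.9 to 46.5, and at chr19:44479462-44493929, 4 regions had fed densities of 25.7 to 39.9. By chromosome, the share of fed regions in this class ran from 8.40% on X (72 of 857) to 12.9% on chromosome 13 (174 of 1345), and was 0 of 92 on Y.

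CREB sites of isolated hepatocytes were the most common factor sites in the 24 h-absent regions, and CREB sites of whole liver were fewer. The same order held over all fed regions. A region was counted at a site when it had at least 1 base in common with a region of that factor's list. After glucagon with corticosterone, 1314 of the 3369 regions were at a CREB site (39.0%, 95% Wilson interval 37.4 to 40.7), against 58.9% of all fed regions. Without hormone, 1170 were at a CREB site (34.7%, 33.1 to 36.4), against 57.3% of all fed regions. After glucagon alone, 853 were (25.3%, 23.9 to 26.8), against 46.2%. All 3 hepatocyte shares were below those of all fed regions by more than the width of their intervals. The lists differ in length (47596, 28229 and 42090 sites without hormone, with glucagon and with both), so the order of these shares does not compare binding between treatments. The liver CREB lists are shorter, at 13142 sites (fed) and 11339 (fasted), so their lower shares do not compare liver with hepatocytes. With only the denser 50% of each factor list, the shares were 24.9% with both hormones, 26.8% without hormone and 15.9% with glucagon, against 44.3%, 49.4% and 33.2% of all fed regions. All the intervals cover counting error only, and neighbouring regions are not independent.

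In liver, 210 of the regions were at a fed CREB site (6.23%, 5.47 to 7.10), against 18.3% of all fed regions. At the CREB sites of livers fasted for 24 h, the time at which these regions were not listed for H3K27ac, there were 126 (3.74%, 3.15 to 4.44), against 15.2%. Of the regions at either liver CREB list, 116 were in both, 94 in the fed list alone and 10 in the fasted list alone. Over all fed regions the corresponding counts were 3953, 1529 and 605. The fasted list holds fewer sites than the fed list (11339 against 13142), and whether the split differs from that of all fed regions was not tested.

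Phosphorylated CREB was listed at few of the 24 h-absent regions. In fed liver 39 were at such a site (1.16%, 0.848 to 1.58), against 5.28% of all fed regions, and in fasted liver 29 were (0.861%, 0.600 to 1.23), against 3.01%. In all, 43 regions were at either list (1.28%, against 5.57% of all fed regions), and 25 of them at both (0.742%, against 2.73%). Of the 39 regions at a fed phospho-CREB site, 38 were also at a fed CREB site, and of the 29 at a fasted phospho-CREB site, 28 were also at a fasted CREB site. These shares, 97.4% and 96.6%, were close to the 98.4% and 96.7% over all fed regions. The share of 24 h-absent regions at phospho-CREB was also taken under other choices of lists. It was 1.75% and 1.36% (fed and fasted) when the fasted H3K27ac lists were reduced by density to the length of the fed list. In the denser 50% of the fed list, with 411 regions, it was 0.730% (0.249 to 2.12) and 0.243% (0.0430 to 1.37). Both of the latter intervals hold the main shares, so no shift is read from them. All fed regions were at 5.28% and 3.01% under the first setting and at 7.40% and 3.83% under the other.

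GR after glucagon with corticosterone was listed at 115 of the regions (3.41%, 2.85 to 4.08), against 7.90% of all fed regions. Of the 115, 105 were at a CREB site under the same treatment (91.3%), 98 at one after glucagon alone (85.2%) and 96 at one without hormone (83.5%). Over all fed regions at GR these shares were 92.0%, 86.7% and 88.0%, so the link with hepatocyte CREB was about as frequent there. At a fed liver CREB site were 30 of the 115 (26.1%) and at a fasted one 19 (16.5%), against 40.5% and 43.6% of all fed regions at GR. No CREB or phospho-CREB site was listed at 2 of the 115.

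**Figure D2:**
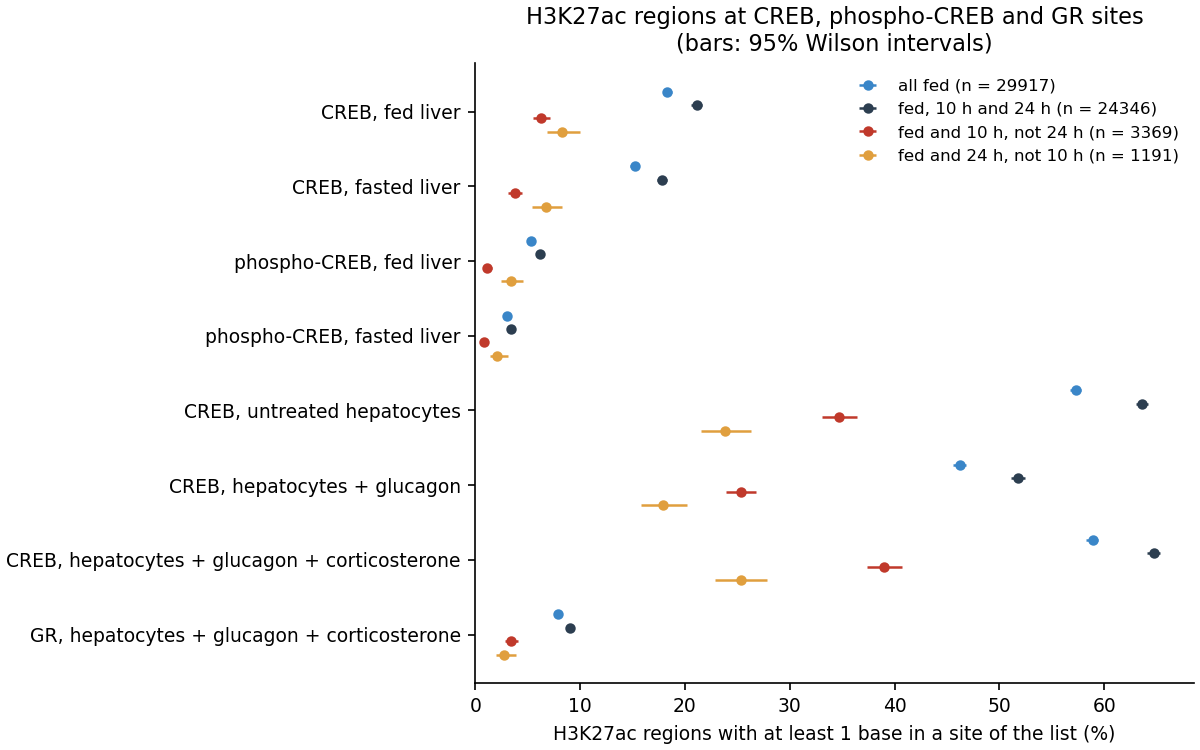
Share of H3K27ac regions (x axis, percent) with at least 1 base in a site of each factor list (y axis), for all fed regions, the kept regions, the 24 h-absent regions and the 10 h-absent class, with 95% Wilson intervals that cover counting error only. In all 8 lists the 24 h-absent regions lie below all fed regions, as at the CREB sites of glucagon plus corticosterone (39.0% against 58.9%).

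Put together by region, 1795 of the 24 h-absent regions (53.3%) were at no site of the 8 lists, against 32.6% of all fed regions. Hepatocyte CREB was listed at 1542 (45.8%), against 65.8% of all fed regions. Hepatocyte CREB with no liver CREB or phospho-CREB site was listed at 1350 (40.1%), against 46.9%. All 3 hepatocyte CREB lists shared 698 of the regions (20.7%), against 42.0% of all fed regions. The list with both hormones was the only hepatocyte CREB list at 254 regions (7.54%), against 5.63% of all fed regions. Any liver list was present at 222 (6.59%), against 20.5% of all fed regions, and all 5 CREB lists at 93 (2.76%), against 11.8%.

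Wide regions have more room for a site, so the shares were also taken within width classes. Among regions under 500 bp, which made up 1909 of the 3369 (56.7%), hepatocyte CREB shares came close to those of all fed regions of that width. They were 32.4% against 35.1% without hormone, 24.1% against 27.2% with glucagon and 37.4% against 38.5% with both hormones. Kept regions under 500 bp stood higher, at 42.7%, 33.6% and 45.6%. At liver sites of this width the shares were 6.65% against 10.1% for fed CREB, 4.50% against 8.31% for fasted CREB, and 1.36% against 3.16% for fasted phospho-CREB. For GR they were 3.82% (3.05 to 4.78) against 4.85% (4.36 to 5.39), with intervals that overlapped. The gap to all fed regions was larger in the 231 regions of 1000 bp and over. There the share at hepatocyte CREB without hormone was 37.7% against 73.0%, and 2 regions were at a fasted liver CREB site (0.866% against 20.6%). None of the 231 was at a fasted phospho-CREB site, with an upper Wilson limit of 1.64%. Over all fed regions the shares at hepatocyte CREB rose with width from 35.1% to 73.0% without hormone, whereas in the 24 h-absent regions they were 32.4%, 37.8% and 37.7% in the 3 width classes.

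**Figure D3:**
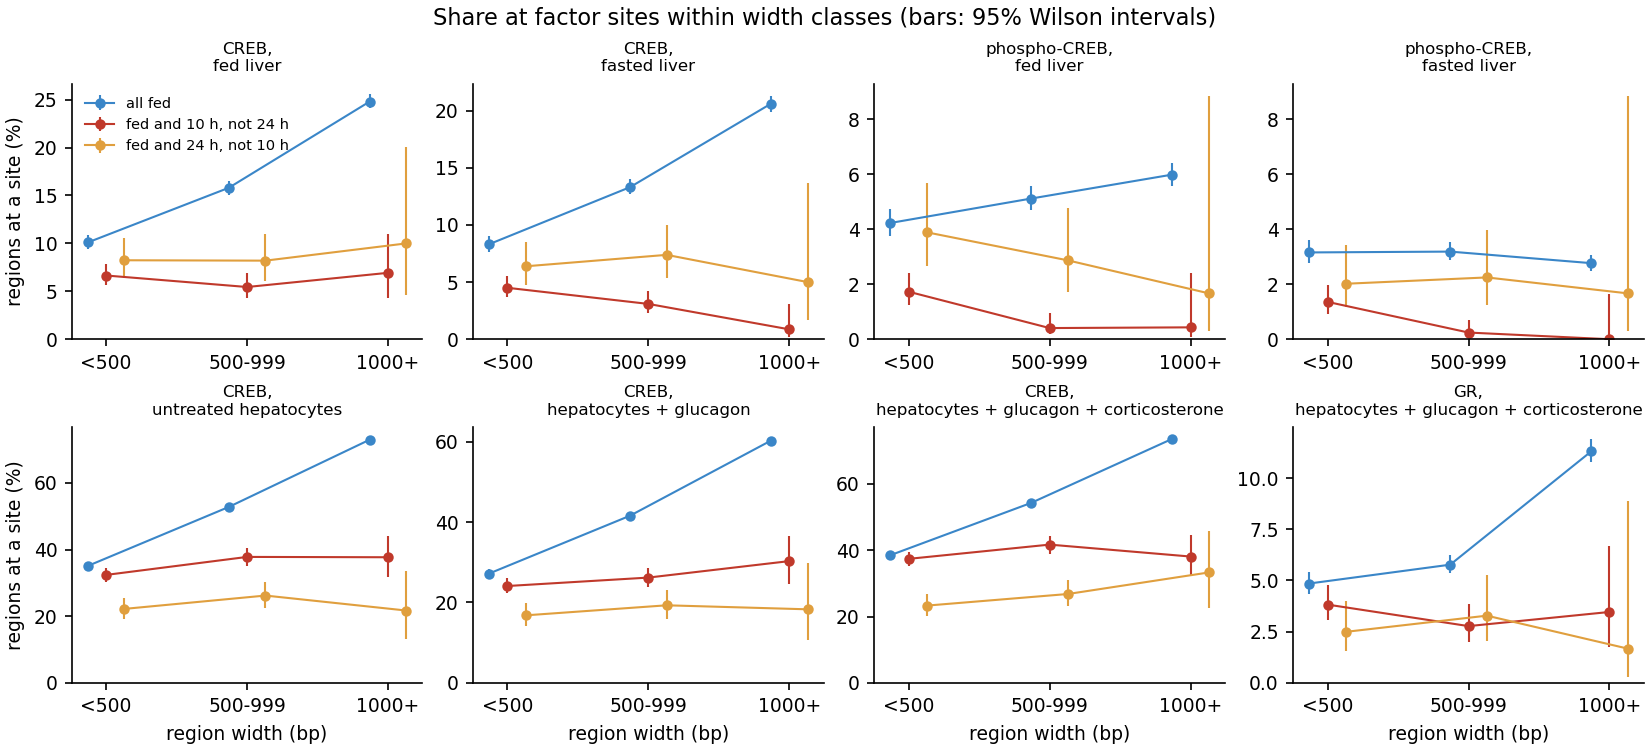
Share of regions at a site of each factor list (y axis, percent) in 3 width classes (x axis, bp), with 95% Wilson intervals, for all fed regions, the 24 h-absent regions and the 10 h-absent class. All fed regions climb with width in the 3 hepatocyte CREB panels (35.1% to 73.0% without hormone), while the 24 h-absent regions stay between 24.1% and 41.7% there.

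Against the 10 h-absent class, which has like width and density, the 24 h-absent regions had higher shares of hepatocyte CREB and lower shares of liver CREB and phospho-CREB. Without hormone the hepatocyte shares were 34.7% against 23.8% (21.5 to 26.3), with glucagon 25.3% against 17.9% (15.8 to 20.2), and with both hormones 39.0% against 25.3% (22.9 to 27.8). At fasted liver CREB the order was the other way, with 3.74% against 6.72% (5.43 to 8.28), and at fed phospho-CREB it was 1.16% against 3.36% (2.48 to 4.54). The intervals of those 5 pairs did not overlap. Fasted phospho-CREB was at 0.861% against 2.10%, with intervals that ended at 1.23% and began at 1.43%. For fed CREB (6.23% against 8.31%) and GR (3.41% against 2.77%) the intervals overlapped. No test of these differences was made, and no comparison of densities between lists enters them.

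Within the 24 h-absent regions, the share at hepatocyte CREB fell with the fed density, and that at fed liver CREB had no such order. When the regions were ranked by fed density and split into 4 equal groups, the shares at hepatocyte CREB without hormone were 46.3%, 38.7%, 29.7% and 24.2% from the densest group down. With both hormones they were 48.5%, 41.8%, 35.9% and 29.8%. At fed liver CREB 59 of the 843 densest regions had a site, and the next 3 groups had shares of 5.11%, 6.53% and 6.29%, and at GR the 4 shares were 2.85%, 4.39%, 3.09% and 3.33%. At phospho-CREB the share was highest in the least dense group. In fasted liver it was 0.356%, 0.475%, 0.831% and 1.78% from the densest group down, on 3 to 15 regions a group, and in fed liver 0.949%, 0.713%, 1.07% and 1.90%. The denser regions were also wider, with a median width of 610 bp in the densest group.

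Distance to the nearest 24 h region also went with the factor shares. Regions within 500 bp had the highest share in all 8 lists, with fed CREB at 8.48%, fasted CREB at 6.46%, hepatocyte CREB without hormone at 41.6%, and GR at 4.85%. Those over 500 and up to 10000 bp away had the lowest of these shares, at 3.96%, 2.06%, 29.1% and 2.48%. The isolated regions beyond 10000 bp lay between, at 6.68%, 3.17%, 34.7% and 3.17%. The shares therefore did not fall steadily with distance.

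**Figure D4:**
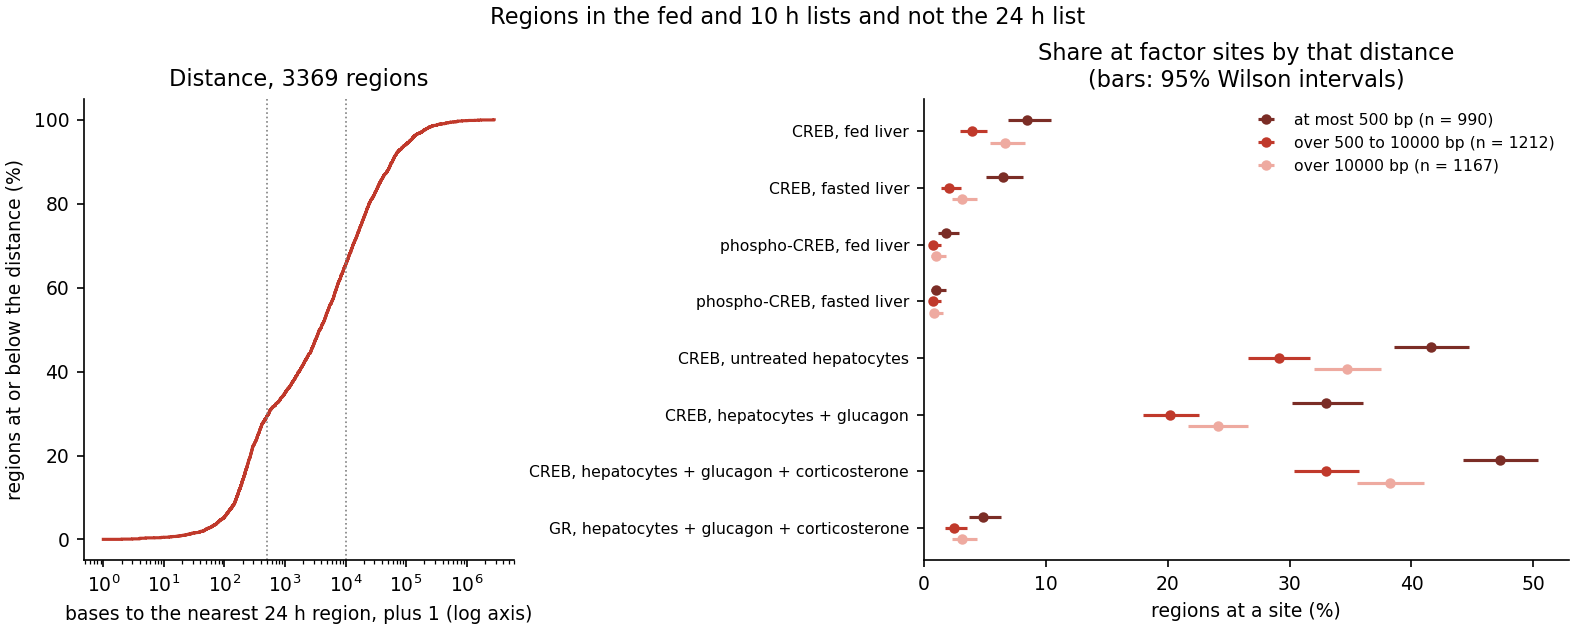
Left, cumulative share of the 3369 24 h-absent regions by bases to the nearest 24 h H3K27ac region (log axis, 1 added), with dotted lines at 500 and 10000 bp; right, share at a site of each factor list in the 3 distance classes, with 95% Wilson intervals. The nearest class has the highest share in each list, as for CREB with glucagon plus corticosterone (47.3%, 33.0% and 38.2% from near to far).

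Most factor sites that touched these regions had their midpoint outside the region. Of 1169 sites of hepatocyte CREB without hormone that touched a 24 h-absent region, 36.6% had their midpoint inside it, against 82.2% of the sites touching any fed region. For the other 7 lists the share inside was 27.9% to 42.9%, against 80.5% to 84.3%. In the 10 h-absent class the 8 shares ran from 39.0% to 80.0%. The median distance between the midpoint of a region and that of its densest site was 290 to 328 bp in the 8 lists, while the median region was 462 bp wide. Those densest sites had median widths of 542 to 749 bp. Over all fed regions the median region was 822 bp wide, and the part of region width in the shares inside was not tested. A part of the touching sites extended into acetylated chromatin of the 24 h list. Of the 1169, 351 (30.0%) also touched a 24 h region, and 56 of the 122 fasted CREB sites did (45.9%). Among sites touching any fed region, 93.5% and 97.6% did. The rule itself limits the first 2 shares, because it leaves out fed regions that overlap the 24 h list. Counting midpoints inside per Mb of region gave 238 in the 24 h-absent regions and 428 in all fed regions for CREB without hormone, and 18.9 against 99.4 for fasted liver CREB. By that count all 8 lists were lower in the 24 h-absent regions. Counting every touching site per Mb instead put the 3 hepatocyte CREB lists higher in the 24 h-absent regions (650 against 520 without hormone). The direction for hepatocyte CREB thus depends on the scale. The other 5 lists stayed lower by that count, widely for fasted CREB (67.8 against 119) and narrowly for GR (63.9 against 66.9). When 50% of the shorter region had to be in common, in drawing the regions and in counting sites, the shares fell to 22.1% at CREB without hormone, 15.3% with glucagon, 2.39% at fasted liver CREB and 1.77% at GR. Those of all fed regions fell as well, to 48.8%, 37.8%, 12.7% and 6.35%.

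**Figure D5:**
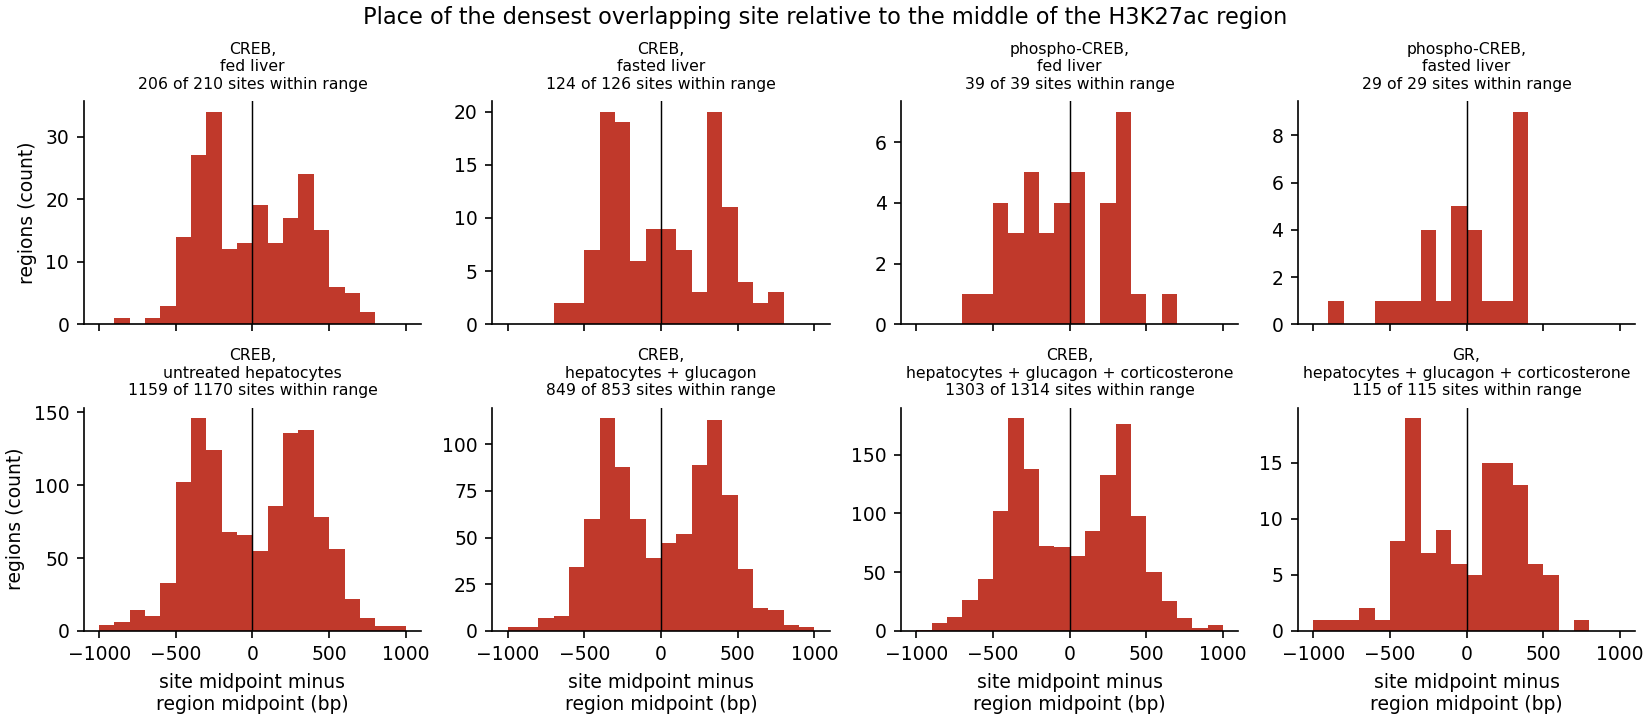
Number of 24 h-absent regions (y axis) by the position of the densest overlapping site's midpoint relative to the region's midpoint (x axis, bp, 100 bp bins, within 1000 bp), 1 panel for each factor list. In the hepatocyte CREB panels the counts peak on both sides of the middle and dip at it (median distances 319, 325 and 326.5 bp).

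The densest sites at these regions were mostly above the median density of their own lists, but less often than over all fed regions, except at GR. Of the 126 regions at a fasted liver CREB site, 83.3% had a site above the median density of that list. The median site had a density of 18.3, against 17.7 over all fed regions and 8.42 for the list. At fed phospho-CREB the median site was also denser than over all fed regions (28.7 against 23.8). In the other lists, GR included, it was less dense than over all fed regions. For fed phospho-CREB 94.9% were above the list's median, and for GR 97.4%. For hepatocyte CREB after glucagon and after both hormones the shares were 63.0% and 63.8%. Over all fed regions the shares were 88.1% for fasted CREB, 98.9% for fed phospho-CREB and 97.1% for GR. After glucagon and after both hormones they were 71.9% and 75.3%. For fed liver CREB the share was 79.5% against 86.6%, and for hepatocyte CREB without hormone 77.2% against 86.2%.

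The 10 densest of the 24 h-absent regions had fed densities of 39.8 to 61.8 and lay 1062 to 93802 bp from any 24 h region. None had a 10 h partner that touched a 24 h region. At 7 of the 10 hepatocyte CREB was listed without hormone, at 7 with both hormones and at 6 with glucagon. Fed liver CREB was listed at 1, and fasted liver CREB, phospho-CREB and GR at none. Over all regions in the denser 50% of the fed list the hepatocyte shares were 76.6%, 76.7% and 64.1% in that order. Fed and fasted liver CREB were at 26.7% and 22.6% there. With 10 regions, nothing is read from these counts. The densest was chr17:28415601-28418024, 2424 bp wide, with a fed density of 61.8 and a z-score of 103. Its 10 h partner was only 451 bp wide, with a z-score of 15.5, and the region was at all 3 hepatocyte CREB lists and no other. The next, chr4:106135129-106137772, lay 93802 bp from the nearest 24 h region, had a 10 h partner with a z-score of 97.8, and was at fed liver CREB and all 3 hepatocyte CREB lists. At both regions the 10 h partner was narrower than the fed region, at 451 bp against 2424 bp and at 1719 bp against 2644 bp. A change in width with fasting was not tested.

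The other 8 were smaller in rank and mixed in their sites. All 3 hepatocyte CREB lists were present at chr1:90164337-90164942 and chr19:44482315-44483364. A pair of them was present at chr15:25642998-25645727, chr3:89106562-89107486 and chr4:107755088-107756151. The region chr4:103053853-103056376 was at the CREB list with both hormones alone, and chr5:113645809-113646611 at the list without hormone alone. At chr4:61676151-61678033, with a fed density of 45.3 and a 10 h partner of 48.0 in its own list, no site of the 8 lists was found.

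Among the 115 regions at GR, the 5 with the highest fed density were chr11:55029770-55032363, chr3:89091995-89093388, chr4:103059129-103060665, chr2:163380612-163381339 and chr9:120685080-120686542, with GR densities of 5.20, 20.8, 11.9, 11.9 and 7.36. All 5 were at CREB after glucagon and after both hormones, and chr4:103059129-103060665 was at fed liver CREB too. The densest GR site, at 140, was at chr13:55289454-55290007, a region with a fed density of 5.08. It lay 397 bp from a 24 h region and its 10 h partner, 6085 bp wide, touched that list.

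Among the 93 regions at all 5 CREB lists, the 5 with the highest fed density lay close to acetylated chromatin of the 24 h list. Of all 24 h-absent regions, 29.4% lay at most 500 bp from a 24 h region. No pattern over the 93 is read from these 5 examples. The 5 were chr2:27395961-27396462, chr8:73278555-73279039, chr4:46883286-46884264, chr9:36574364-36575392 and chr16:22857859-22858486, at 47, 292, 125, 51 and 285 bp from a 24 h region. The last was at 7 of the 8 lists, phospho-CREB in both states included. Its CREB site had a density of 126 in the fed list and 111 in the fasted list.

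The densest site of each CREB and phospho-CREB list among these regions was at a weakly acetylated member. In all 5 CREB lists the densest site at a 24 h-absent region was at chr12:82696370-82696653, a 284 bp region with a fed H3K27ac density of 5.90, which ranked 3191 of the 3369. The CREB densities there were 363 in the fed list, 300 in the fasted list, 517 without hormone, 248 with glucagon and 447 with both hormones. It lay 465 bp from a 24 h region. The densest fed phospho-CREB site, at 89.8, was at chr9:123022428-123022702, 49 bp from a 24 h region, and the densest fasted phospho-CREB site, at 73.2, was at chrX:120328063-120328318, 700 bp from one. These examples, picked by their densest site, all lay within 700 bp of a 24 h region, and no pattern over the other regions is read from them. Of the 210 regions at a fed CREB site, 78 lay over 10000 bp from any 24 h region, and of the 126 at a fasted one, 37 did. Of all 3369 24 h-absent regions 1167 did (34.6%), so nothing particular to CREB sites is read from these counts.

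A pair of regions was chosen after their values were seen. The region chrX:123304528-123304978, with a fed density of 4.58, was the only one at all 8 lists. The densest 10 h partner, at 104, was that of chr14:120876159-120876674, whose own fed density was 11.3. That region was at all 5 CREB lists and lay 126 bp from a 24 h region.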

How the data were processed

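Of 38 samples in 15 groups, 28 samples in 11 groups have a list used here, and 4 groups (10 samples) have none. Another 2 deposited lists (8 columns of values) could be matched to no sample and were left out. The submitters' processing notes name CASAVA 1.8 and build mm9. No source used here names the aligner or the caller's settings. The list names speak of hotspot calling, on pooled libraries for the 3 H3K27ac lists and on a pair of libraries for the other 8. The liver factor lists name 2 of the 3 libraries, and the untreated hepatocyte list names 1 library against itself. Each list gives, per the file headers, positions, and 1 highest tag density (a signal) and 1 z-score per region. Both the score and the signal are the authors' deposited values, made by hotspot calling as the list names say. Read depth is unknown, so no counting error of a density can be given. The normalisation of the deposited density signal is not stated.

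The deposited end was read as the last base of a region. Regions with at least 1 base in common were shared, and where several sites overlapped, the densest was taken. Shares have 95% Wilson intervals, and no test was made. Width classes were bounded at 500 and 1000 bp, distance classes at 500 and 10000 bp, and clusters joined regions at most 10 kb apart. Named regions were the 10 densest, the 5 densest at GR and at all 5 CREB lists, the one at each factor list's densest site, and the 3 on either side of the rule. The regions, classes and alternatives were chosen with earlier results of these data known. Planned gene names and motif searches were not run, because no mm9 annotation or genome was used here. The alternatives changed the bases that count as shared, the length of the lists and the window searched. Counting of overlaps was tested on simulated regions with planted answers. Figures were drawn with matplotlib 3.10.9, and values computed with pandas 2.3.3, numpy 2.4.6 and SciPy 1.17.1 under Python 3.11.15.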

Additional observations from a re-analysis of the deposited data

How the results depend on the processing

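The direction of the shares did not depend on the 7 alternatives planned: in each, the 24 h-absent regions had a lower share than all fed regions in 8 of 8 factor lists. Their number was 3369 and lay between 2549 and 3395, apart from the denser 50% of the fed list, which held 411. Deposited ends read as lying outside the region, an alternative chosen after seeing the data, gave 3373. With at least 50% of the shorter region in common, shares fell to 4.42% at fed CREB, 2.39% at fasted CREB, 22.1% at hepatocyte CREB without hormone, 15.3% with glucagon, 27.2% with both hormones and 1.77% at GR. Those of all fed regions were then 15.6%, 12.7%, 48.8%, 37.8%, 50.6% and 6.35% in the same order. With a gap of up to 500 bp counted as shared, CREB without hormone was at 36.4%, against 61.2% of all fed regions. In the denser 50% of the fed list, shares were 50.9%, 37.0% and 50.4% at the 3 hepatocyte CREB lists in that order. All regions in that part of the fed list were at 76.6%, 64.1% and 76.7%. At fed and fasted phospho-CREB the shares were 0.730% (0.249 to 2.12) and 0.243% (0.0430 to 1.37), with intervals that hold the main shares. With the 10 h and 24 h lists reduced to the length of the fed list by density, shares were 38.8%, 27.7% and 42.7% at hepatocyte CREB, 4.64% at fasted CREB, 1.75% and 1.36% at fed and fasted phospho-CREB and 4.29% at GR. Reduced by z-score, the hepatocyte CREB shares were 38.8%, 27.7% and 43.0%. Under both reductions all fed regions stayed at 57.3%, 46.2% and 58.9% at hepatocyte CREB and 15.2% at fasted CREB. They were at 5.28% and 3.01% at fed and fasted phospho-CREB and 7.90% at GR. With the denser 50% of each factor list, shares were 4.96% and 3.12% at fed and fasted liver CREB, and 26.8%, 15.9% and 24.9% at hepatocyte CREB. Those of all fed regions were then 15.9% and 13.4%, and 49.4%, 33.2% and 44.3%. The cause of these shifts was not tested. A window of 500 bp around each midpoint moved no share of the 24 h-absent regions beyond its interval. The shares of all fed regions fell in each list, so the gap was narrower. At CREB without hormone it was 34.8% against 51.7%, and with both hormones 39.2% against 53.8%. Fed liver CREB was at 6.35% against 15.2%, and GR at 3.44% against 6.04%.

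The regions themselves depended on the choices more than their number did. Of the 3369, 3271 (97.1%) were also drawn with 50% in common, 2381 (70.7%) with a gap of 500 bp, and 2564 (76.1%) and 2497 (74.1%) with lists of equal length by density and z-score. All 4 of these settings shared 1508 (44.8%). No paired analysis was possible because each group has 1 list made from pooled or paired libraries, and for the same reason no replicate was left out. The unknown depth and the differing thresholds of the lists limit what absence from the 24 h list can show.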
